A study of Mus musculus with 4 samples.

Results

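The imprinted growth genes H19, Igf2, Igf2r, Mest, Peg3, Dlk1, Meg3, Plagl1, Grb10 and Ndn were followed through doxorubicin treatment of mouse embryonic fibroblasts (MEFs), primary cells grown out of mouse embryos. They were found by gene name among the spots that are not controls, and all 10 were present among the 31891 gene names of the array. They held 20 of its 39429 probes and 38 of its 43020 spots. All 10 genes and 19 of the 20 probes were marked well above background on all 4 arrays, as were 16562 genes in all.

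An imprinted gene is read mainly from the chromosome of 1 parent. This choice is marked by DNA methylation laid down in the egg or sperm, and it is kept through later cell divisions. Many imprinted genes act on fetal growth, and a number of them are strongly expressed in embryonic tissues and turned down after birth. H19, Igf2r, Meg3 and Grb10 are expressed from the maternal copy in most tissues, whereas Igf2, Mest, Peg3, Dlk1, Plagl1 and Ndn are expressed from the paternal copy. A probe binds RNA from either copy, so the array values do not tell the parental copies apart.

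The study looked for genes that depend on p53 and encode regulators of myosin. RNA was taken from WT (p53+/+) MEFs and from p53-/- MEFs, which lack the tumor suppressor p53 in every cell, each without and with doxorubicin, an anthracycline that breaks DNA by trapping topoisomerase II. Each of these 4 conditions had 1 array, and all 4 arrays were on 1 slide, so no difference has a replicate check, no p-value can be given, and the place on the slide cannot be told apart from the condition. The sex, strain background and age of the embryos, the number of embryos pooled, and the dose and time of doxorubicin are not given for these arrays in the sources used here.

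Levels are log2 signals relative to the 75th percentile of their array, so that a level of 0 is that percentile and 1 unit is 2-fold. The percentile itself had signals of 2074, 1819, 1881 and 2421 in WT MEFs without and with doxorubicin and then in p53-/- MEFs without and with it, and every set of 4 values below keeps this order. A gene with several probes was represented by its brightest, a difference of at least 2-fold was called, and levels of different genes are not compared. The 10 spots of 248 repeated probes had a typical SD of 0.08 log2 units within an array, or 0.11 for a ratio of 2 arrays and 0.16 for a difference of 2 ratios. This is spot noise only and leaves out the variation between cultures. The probe for Trp53, the gene of p53, had signals of 1228, 3442, 442 and 543, lowest in both p53-/- samples but above background there, and whether it lies in the deleted part is not given in the sources used here. All 10 fibroblast markers were well above background on every array. Their summed level, in multiples of the 75th percentile, was 827, 683, 677 and 555, while leukocyte markers summed to between 16.6 and 24.6, endothelial markers to between 2.40 and 4.26, and muscle markers to between 0.75 and 1.44. Myod1, Myf5 and Pax7 (muscle), Cdh5 (endothelium) and Epcam (epithelium) were above background on no array. Other markers were well above it on all 4 arrays, namely 8 of 10 leukocyte, 2 of 6 endothelial, 4 of 8 muscle and 3 of 8 epithelial ones. Among them were Itgam (leukocyte, signals from 26264 to 31691), Kdr (endothelium, 5269 to 7434), Des (muscle, 587 to 1662) and Krt18 (epithelium, 8346 to 40299).

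Probes of the array read 60 bases each. Sequences are given here for the RNAs on which the results turn, in lower case and from 5′ to 3′, with positions of the mouse build mm9 as the array files give them. The H19 and Meg3 probes are shown because several probes along 1 noncoding RNA could be set beside each other. The Mest, Peg3 and Ndn probes are examples from members called in at least 1 comparison. The Mest probe shown did not itself pass 2-fold in any comparison. Another Meg3 probe, farther upstream and with a lower ratio in p53-/- MEFs (-1.77), is not printed. Exon positions in mm9 were not annotated here.

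H19, brightest probe, chr7:149761492-149761551, minus strand: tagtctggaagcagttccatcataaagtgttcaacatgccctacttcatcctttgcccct
H19, upstream probe, chr7:149762417-149762476, minus strand: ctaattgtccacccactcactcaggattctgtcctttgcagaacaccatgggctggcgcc
Meg3, upstream probe, chr12:110799558-110799617, plus strand: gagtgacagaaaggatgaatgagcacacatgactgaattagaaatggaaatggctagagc
Meg3, brightest probe, chr12:110809678-110809737, plus strand: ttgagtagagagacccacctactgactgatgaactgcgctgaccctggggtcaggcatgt
Mest, upstream probe, chr6:30692160-30692219, plus strand: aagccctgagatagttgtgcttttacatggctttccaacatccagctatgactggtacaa
Peg3, upstream probe, chr7:6661407-6661466, minus strand: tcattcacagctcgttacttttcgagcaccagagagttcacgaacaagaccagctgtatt
Ndn, only probe, chr7:69493847-69493906, plus strand: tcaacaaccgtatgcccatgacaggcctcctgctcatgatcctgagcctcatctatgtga

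The brightest probes of the other members lay at chr7:149839661-149839720 for Igf2, chr6:30698279-30698338 for Mest, chr7:6658774-6658833 for Peg3, chr12:110698721-110698781 for Dlk1, chr10:12850832-12850891 for Plagl1 and chr11:11833165-11833224 for Grb10. For Igf2r the file places only 11 of the 60 bases, at chr17:12875253-12875263.

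With doxorubicin, 5 of the 10 members were at least 2-fold lower in WT MEFs, namely H19, Mest, Peg3, Plagl1 and Grb10, and 0 were at least 2-fold higher. Among all 17572 genes measured in this comparison, 10.4% were called lower and 11.0% higher. In p53-/- MEFs, 4 members were at least 2-fold lower, namely Igf2, Peg3, Meg3 and Grb10, and 0 were higher, against 6.90% lower and 9.23% higher of 17006 genes. The 5 members called lower in WT MEFs were at least 2-fold lower under each other scaling too, but the count in p53-/- MEFs was 6 with the array median, 3 with quantile normalization and 1, Grb10, without scaling. These settings called 2107, 1403 and 588 of all 17006 genes lower in p53-/- MEFs. Peg3 and Grb10 were thus called lower in both genotypes, Peg3 not without scaling (-0.96 in p53-/- MEFs). The median log2 ratio of the members was -0.86 in WT and -0.84 in p53-/- MEFs, while the median over all genes was 0.01 and 0.00. Ratios were below 0 for 7 members in WT MEFs and for 9 in p53-/- MEFs, the exceptions being Igf2, Dlk1 and Ndn in WT and Dlk1 in p53-/- MEFs, and these ratios stayed below 0 under every alternative setting tried. The members were chosen with earlier results of these arrays known, so these counts describe them and do not set them apart from other genes. In bulk RNA, fewer cells that express a gene and less of its RNA per cell cannot be told apart.

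**Figure D1:**
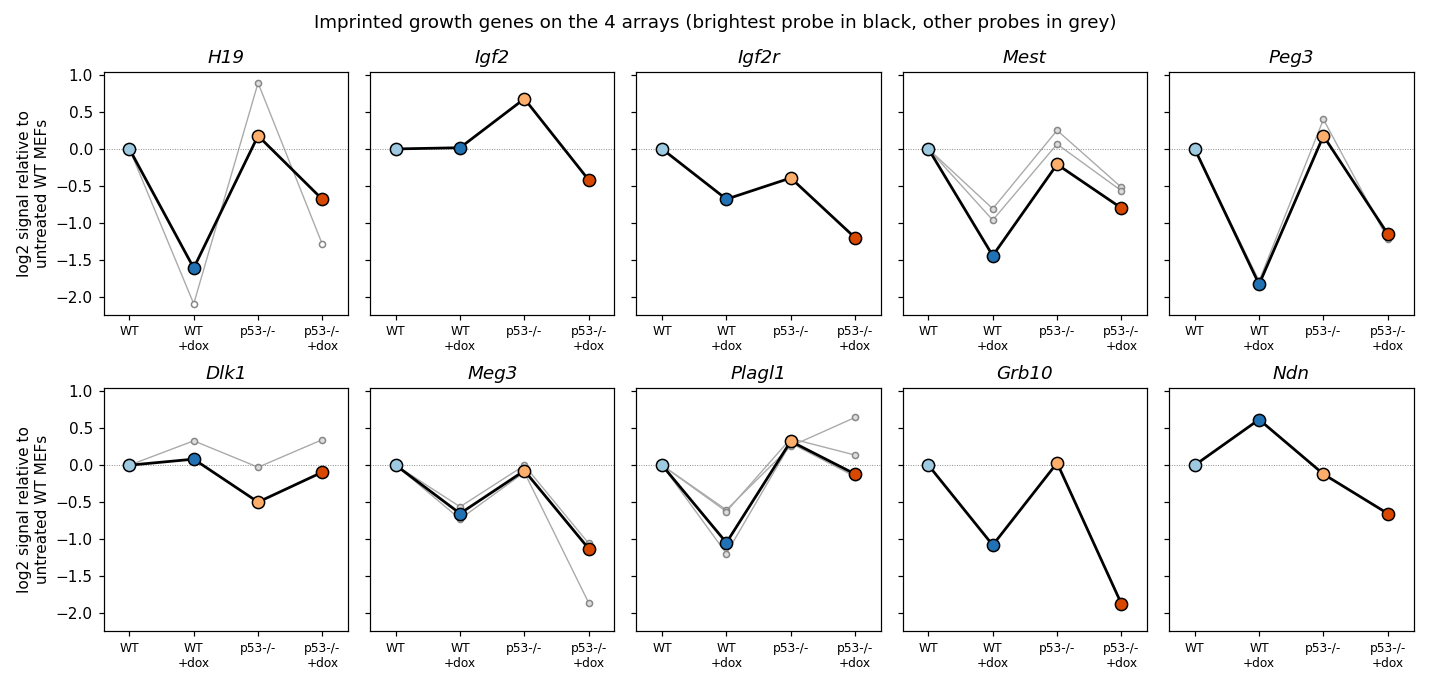
Log2 signal of each of the 10 genes on the 4 arrays (WT and p53-/- MEFs, without and with doxorubicin, written +dox), relative to the same probe in untreated WT MEFs. Large coloured points with black lines are the brightest probe and small grey points the other probes; white points were not well above background. Peg3 spans 2.01 log2 units and Dlk1 0.58, the widest and narrowest ranges of the brightest probes.

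Without doxorubicin the genotypes were close. Between untreated p53-/- and WT MEFs, 0 members were called higher and 0 lower, where 2.16% and 2.62% of 17344 genes were. The log2 ratios of p53-/- over WT ran from -0.50 for Dlk1 to 0.68 for Igf2, with a median of -0.02. With doxorubicin, Ndn alone was called, with a log2 ratio of p53-/- over WT of -1.27, against 10.3% lower and 11.9% higher of 17947 genes. H19 and Plagl1 stood close to the threshold on the other side, both with a ratio of 0.93. On the arrays as a whole, 5 members had their highest level in untreated p53-/- and 3 in untreated WT MEFs, and 5 had their lowest level in doxorubicin-treated p53-/- and 4 in doxorubicin-treated WT MEFs.

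The difference between the doxorubicin log2 ratios of the genotypes (WT minus p53-/-) was at least 1 for Igf2 and Ndn, at 1.12 and 1.15, and at most -1 for 0 members. Without scaling neither was called (0.56 and 0.60), and 4 others were at most -1, namely Mest (-1.41), H19 (-1.30), Plagl1 (-1.16) and Peg3 (-1.06), while quantile normalization kept both and added H19 (-1.07). Over all 16562 genes, 552 were that far above 0 and 4177 that far below without scaling, and 1457 and 1678 with quantile normalization. Under the scaling used for the levels, 8.38% were that far above 0 and 9.86% that far below. The members lay on both sides, with 5 above and 5 below 0 and a median of -0.10. H19, Mest, Plagl1, Peg3 and Dlk1 had the lower ratio in WT MEFs, and Ndn, Igf2, Grb10, Meg3 and Igf2r in p53-/- MEFs, of which Meg3 (-0.15) and Igf2r (-0.42) turned without scaling.

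**Figure D2:**
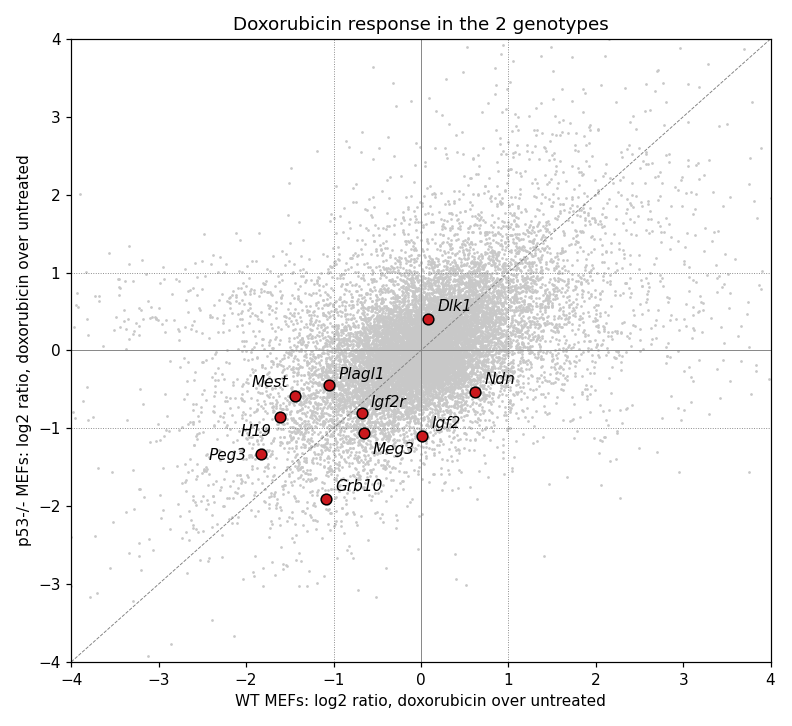
Log2 ratio of doxorubicin-treated over untreated MEFs in WT (x axis) and p53-/- MEFs (y axis), with 1 grey point for each of the 16562 genes well above background on all 4 arrays and the 10 imprinted genes in red; genes beyond 4 log2 units are not shown, dotted lines mark 2-fold, and the dashed line marks equal ratios. Most members lie at the lower left, with Ndn and Igf2 below the dashed line and Mest and H19 above it.

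Igf2 and H19 are neighbors that share enhancers. Igf2 encodes insulin-like growth factor 2, the main fetal growth factor of this family, and H19 is a spliced noncoding RNA that also carries a microRNA. H19 stood at levels of 7.84, 6.23, 8.02 and 7.15 log2 units, from signals of 474345, 136107, 486642 and 344828. Both untreated samples were high, and doxorubicin-treated WT MEFs were the lowest of the 4. The H19 level with doxorubicin was 32.7% of the untreated level in WT MEFs and 55.0% in p53-/- MEFs, which are log2 ratios of -1.61 and -0.86. In WT MEFs only 4.01% of all genes had a lower ratio. The upstream H19 probe, which starts 925 bases away, was dim, at signals of 129, 26.4, 217 and 61.4, and was well above background in the untreated samples only. From the lowest signals marked well above background, it was at least 2.55-fold lower with doxorubicin in WT and at least 3.21-fold lower in p53-/- MEFs. The brightest of 153 negative control spots reached 250.1 in untreated p53-/- MEFs and 108 in untreated WT MEFs, so this probe is within reach of background.

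Igf2 stood at 2.49, 2.51, 3.17 and 2.07 log2 units. It was highest in untreated p53-/- MEFs, and the other values lay within 0.44 log2 units of each other. Its log2 ratio was 0.02 in WT MEFs, with a sign that turned to -0.26 under scaling to the array median and -0.17 without scaling, and -1.10 in p53-/- MEFs. The neighbors thus had unlike ratios in WT MEFs, at -1.61 for H19 and 0.02 for Igf2. In p53-/- MEFs both were lower, at -0.86 and -1.10, and only Igf2 passed 2-fold there. With the array median H19 passed it too (-1.16).

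Igf2r and Grb10 restrain growth. Igf2r encodes the receptor that carries IGF2 to lysosomes for breakdown, and Grb10 encodes an adaptor that binds the insulin and IGF1 receptors and dampens their signal. Igf2r stood at 3.95, 3.27, 3.55 and 2.74 log2 units. Its probe was spotted 10 times on each array, with signals from 30158 to 33685 (median 32101), from 16427 to 19100 (median 17426), from 20632 to 23680 (median 21951) and from 15262 to 17351 (median 16216). After scaling, the ranges of the 10 spots did not overlap between any of the 4 arrays, and the level was lower with doxorubicin in both genotypes, by log2 ratios of -0.68 and -0.81. Before scaling, the ranges of the doxorubicin-treated arrays of the genotypes did overlap. How many other repeated probes had separate ranges was not counted. Grb10 stood at 1.99, 0.91, 2.02 and 0.11 log2 units. The untreated samples were alike, at a ratio of 0.03 between genotypes, and with doxorubicin the level was lower by log2 ratios of -1.08 (WT) and -1.91 (p53-/-).

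Mest, Peg3 and Plagl1 are expressed from the paternal copy and are often listed together as a network of growth genes. Mest encodes an enzyme of the alpha/beta hydrolase fold, and its loss restricts growth. It stood at 3.84, 2.40, 3.63 and 3.04 log2 units. Its main probe also had 10 spots per array, with signals from 27879 to 30584 (median 30146), from 8749 to 10082 (median 9639), from 21206 to 24676 (median 23551) and from 18417 to 21234 (median 19883). The scaled ranges again did not overlap between arrays, and doxorubicin-treated WT MEFs were the lowest, at 36.7% of the untreated level. Before scaling, the ranges of the p53-/- arrays met, with treated signals up to 21234 and untreated signals from 21206. The log2 ratio was -1.44 in WT and -0.59 in p53-/- MEFs. The other Mest probes gave -0.96 and -0.81 in WT MEFs, short of 2-fold, and -0.63 and -0.77 in p53-/- MEFs. Of these, the upstream probe printed above showed nearly the same ratio in both genotypes.

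**Figure D3:**
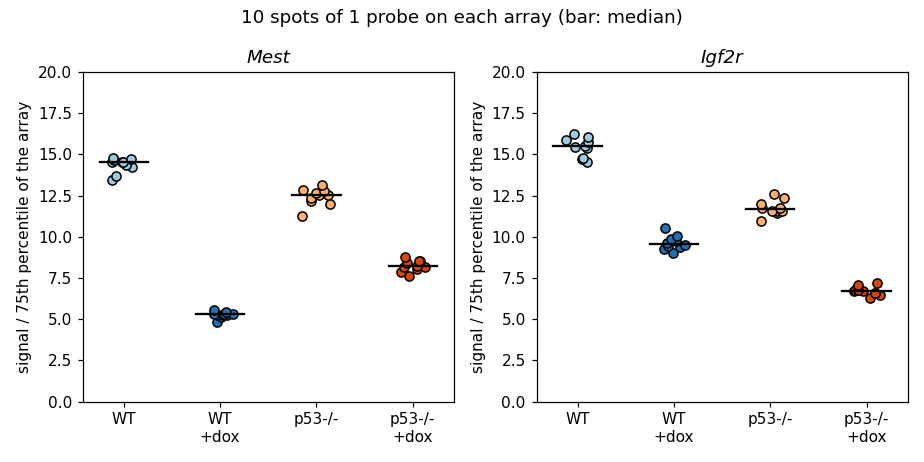
Signals of the 10 repeat spots of the brightest Mest probe (left) and of the Igf2r probe (right) on each array, as multiples of the 75th percentile of the array; bars are medians and points are spread sideways for view. The spots of Mest centre on 14.5, 5.30, 12.5 and 8.21 and those of Igf2r on 15.5, 9.58, 11.7 and 6.70. Their ranges do not overlap between arrays after this scaling, but some do before it. Spots of 1 array share 1 RNA sample.

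Peg3 encodes a large zinc finger protein that binds DNA. It stood at 1.51, -0.32, 1.69 and 0.36 log2 units, high without doxorubicin and low with it in either genotype. Its log2 ratios were -1.83 in WT and -1.33 in p53-/- MEFs, and its upstream probe gave -1.79 and -1.62. Both probes were thus at least 2-fold lower in both genotypes.

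Plagl1, also called Zac1, encodes a zinc finger transcription factor that can halt the cell cycle. It stood at 4.97, 3.92, 5.29 and 4.85 log2 units, so that doxorubicin-treated WT MEFs were low and the other samples lay within 0.44 log2 units of each other. The log2 ratio was -1.05 in WT and -0.44 in p53-/- MEFs. The second bright probe, which starts 448 bases downstream, gave -1.20 and -0.45. It is no independent reading, since both carry the same run of 26 bases, with differences on either side of it.

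Plagl1, run shared by both bright probes: atctcctaacctttgatgactctgta

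The other Plagl1 probes were dimmer and gave -0.61 and -0.63 in WT MEFs, and 0.39 and -0.22 in p53-/- MEFs, so the direction in p53-/- MEFs depended on the probe.

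Ndn encodes necdin, a protein of the MAGE family that binds E2F1 and restrains growth. It stood at 0.40, 1.02, 0.28 and -0.25 log2 units, highest in doxorubicin-treated WT and lowest in doxorubicin-treated p53-/- MEFs. Its ratio was 0.62 in WT and -0.53 in p53-/- MEFs, so the genotypes had opposite signs under every setting tried. It was read by 1 probe with 1 spot.

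Dlk1 and Meg3 are neighbors in 1 imprinted cluster. Dlk1 encodes a membrane protein related to Notch ligands that holds back fat cell formation, and Meg3 is a noncoding RNA of the maternal copy. Dlk1 stood at 6.08, 6.16, 5.58 and 5.99 log2 units, lowest in untreated p53-/- MEFs and otherwise within 0.18 log2 units. Its log2 ratios were 0.08 in WT MEFs, where the sign turned to -0.19 under scaling to the array median and -0.11 without scaling, and 0.41 in p53-/- MEFs. The second Dlk1 probe gave 0.33 and 0.37. Meg3 stood at 6.28, 5.63, 6.21 and 5.15 log2 units, lower with doxorubicin by ratios of -0.65 and -1.06. The other Meg3 probes gave -0.73 and -0.56 in WT MEFs, and -1.77 and -1.06 in p53-/- MEFs. All 3 Meg3 probes thus had ratios below 0. The value was lower in p53-/- MEFs, an order that turned for the brightest probe without scaling (difference -0.15 in place of 0.40).

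Meg3 is followed by other, mostly noncoding transcripts, which were looked up after the values of Meg3 were seen. In the window from Dlk1 to Dio3, 11 probes of 6 gene names were well above background on all 4 arrays. Mirg, a noncoding RNA that hosts many microRNAs, stood at signals of 25712, 5135, 20552 and 2081, and gave log2 ratios of -2.13 (WT) and -3.67 (p53-/-), and its other probe gave -2.28 and -3.34. The probes of 1110006E14Rik gave -1.06 and -1.13 in WT and -1.21 and -1.22 in p53-/- MEFs. The probe of 6430411K18Rik gave -3.21 and -1.79, and that of Gm2922 gave 0.40 and -2.93, from signals of 7126, 8267, 4373 and 739. Rtl1 was above background on no array. Dio3 had signals of 275, 61.9, 155 and 95.3 and was below the mark in doxorubicin-treated p53-/- MEFs. Rian was not among the gene names of the array.

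**Figure D4:**
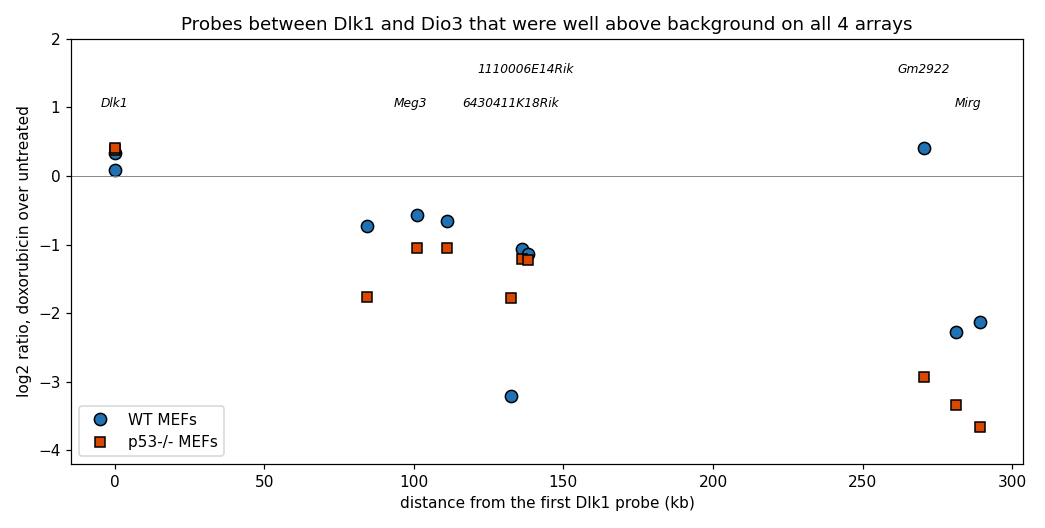
Log2 ratio of doxorubicin-treated over untreated MEFs (y axis) for the 11 probes between Dlk1 and Dio3 that were well above background on all 4 arrays, by distance in kilobases from the first Dlk1 probe (x axis); circles are WT and squares p53-/- MEFs, each from 1 pair of arrays. The Dlk1 probes lie between 0.08 and 0.41 (the 0.08 in WT MEFs turned to -0.19 under scaling to the array median), the Meg3 probes between -0.56 and -1.77, and the Mirg probes between -2.13 and -3.67.

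Sorted by the copy that is usually expressed, a split made after the values were seen, the maternally expressed H19, Igf2r, Meg3 and Grb10 all had log2 ratios below 0 in both genotypes and under every setting tried. The paternally expressed members were mixed, from -1.83 for Peg3 to 0.62 for Ndn in WT MEFs and from -1.33 for Peg3 to 0.41 for Dlk1 in p53-/- MEFs. The split describes these members only, since Asb4, another maternally expressed gene, chosen after its values were seen, gave 1.06 in WT and 1.39 in p53-/- MEFs.

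Several members carry microRNAs in their transcripts. In RefSeq (GRCm38.p6), 4 members host 5 microRNA genes with 9 mature forms, and these have 9 different seeds, so none share one. The forms of H19 and Mest are shown because their hosts were called lower in WT MEFs. Bases 2 to 8, the seed that pairs with target mRNAs, are in capitals.

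mmu-miR-675-5p, in H19, chr7:142577112-142577133, minus strand: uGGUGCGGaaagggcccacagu
mmu-miR-675-3p, in H19, chr7:142577078-142577099, minus strand: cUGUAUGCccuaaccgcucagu
mmu-miR-335-5p, in Mest, chr6:30741314-30741336, plus strand: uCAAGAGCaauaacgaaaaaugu
mmu-miR-335-3p, in Mest, chr6:30741354-30741375, plus strand: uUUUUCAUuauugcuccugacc

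The other mature forms were miR-483-5p and miR-483-3p of Igf2 and miR-1906, miR-770-5p and miR-770-3p of Meg3. Mature microRNAs were not measured on these arrays.

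Promoters were searched because several members were lower together. RefSeq windows of 300 bases (250 before and 50 after a start site, GRCm38.p6) were found for 9 members, in 16 windows; H19 had no entry. TGCCGC, the hexamer bound by ZFP57 when methylated, was present on either strand in 6 of the 16 windows, of Grb10, Igf2, Meg3, Mest and Plagl1, and in 11.6% of all 32851 windows. These windows are not separate readings, since both Mest windows that hold it start 3 bases apart. GCCATNTT, the core bound by YY1, was in 0 of 16 windows and in 6.05% of all. The p53 half-site, searched as its usual degenerate motif, was in 1 window, of Igf2, and in 8.36% of all. The member windows held from 1 CpG pair (a second Meg3 window) to 45 (the main Grb10 window), where the median of all windows was 7. A match is a description of the letters and was not set against the array values. The stretches before the Mest and Plagl1 start sites are given, since both members were called lower in WT MEFs and hold the hexamer there. Capitals mark it, here as its reverse complement.

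Mest, chr6:30737800-30738049, plus strand: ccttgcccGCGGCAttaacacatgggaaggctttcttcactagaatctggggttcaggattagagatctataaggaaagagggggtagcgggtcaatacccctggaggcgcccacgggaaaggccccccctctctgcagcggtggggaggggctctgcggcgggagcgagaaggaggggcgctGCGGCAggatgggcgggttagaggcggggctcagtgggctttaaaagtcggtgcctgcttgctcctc
Plagl1, chr10:13090582-13090831, plus strand: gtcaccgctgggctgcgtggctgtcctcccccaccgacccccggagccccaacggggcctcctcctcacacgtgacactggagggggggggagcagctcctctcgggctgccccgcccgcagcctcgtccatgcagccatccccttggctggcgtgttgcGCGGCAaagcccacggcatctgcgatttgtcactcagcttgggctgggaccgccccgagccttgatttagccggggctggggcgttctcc

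A list of 51 other imprinted genes was spread on both sides of 0. Of these, 50 were on the array and 36 were well above background on all 4 arrays. In WT MEFs 5 were called higher and 5 lower of 38 measured (median log2 ratio 0.11), and in p53-/- MEFs 4 higher and 3 lower of 37 (median -0.04). Between untreated p53-/- and WT MEFs, 2 were higher and 3 lower of 39, against 2.16% and 2.62% of all genes. With doxorubicin 6 were higher and 10 lower of 40, against 11.9% and 10.3%. The lowest differences (WT minus p53-/-) were those of Cobl (-1.77), Dcn (-1.60) and Nnat (-0.71), and the highest those of Magel2 (4.33), Mirg (1.53) and Tnfrsf23 (1.30). The value for Magel2, a MAGE family neighbor of Ndn, rests on signals of 76.2, 2428, 198 and 460, and both untreated signals are below the brightest negative control spot of their arrays (108 and 250.1).

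Neighbors of the members in their clusters were mixed. Airn, the noncoding RNA that silences Igf2r on the paternal copy, gave -0.60 in WT and -0.82 in p53-/- MEFs on the log2 scale, where Igf2r gave -0.68 and -0.81. Beside Peg3, Zim1 gave -0.56 and -0.50, and Usp29 had signals of 302, 46.8, 321 and 46.2 and was above background only without doxorubicin. Beside Ndn, Mkrn3 gave 0.93 and 1.34, from untreated signals of 90.4 and 137 that are below the brightest negative control spots, Peg12 -0.76 and -0.11, Snrpn 0.27 and -0.07, and Ube3a -0.11 and -0.53. Near Mest, Copg2 gave -0.74 and -0.21, and Klf14 was dim, at -0.61 in WT MEFs. Near Igf2 and H19, Cdkn1c, an inhibitor of cyclin-dependent kinases, gave -0.91 and -0.64, and Ins2 0.28 and -0.22, while Phlda2 and Ascl2 were above background with doxorubicin only. Farther along that cluster, in genes added after their values were seen, Kcnq1ot1, a noncoding RNA, gave -1.06 and -0.56, Tnfrsf22 1.88 and 1.03, Tnfrsf23 2.16 and 0.86, and Slc22a18 0.16 and -1.06. Beside Grb10, Ddc gave 0.66 and 0.84 and Cobl -1.12 and 0.65. Slc22a2 was above background on 1 array and Slc22a3 on 0.

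Genes that act with IGF2, IGF2R and GRB10 were on a separate list. All 14 genes of an insulin-like growth factor list were well above background on all 4 arrays, with 1 called higher and 4 lower in WT MEFs (median -0.44), and 3 higher and 4 lower in p53-/- MEFs (median -0.66). The shares of all genes were 11.0% and 10.4% in WT and 9.23% and 6.90% in p53-/- MEFs. Called lower in both genotypes were Igfbp5 (-3.77 and -4.28) and Igfbp4 (-1.76 and -1.61), which encode secreted IGF binding proteins, Igf1r (-1.27 and -2.11), the receptor through which IGF2 signals, and Insr (-1.44 and -1.90), the insulin receptor. Irs2, an adaptor downstream of these receptors, was called higher in both (1.16 and 1.28), and Igf1 (0.53 and 1.52) and Igfbp6 (0.13 and 1.75) in p53-/- MEFs. Igfbp2 gave 0.97 and 0.05 and Irs1 -0.37 and -0.92. The difference between genotypes passed 1 for Igfbp6 only, at -1.62, against 8.38% of all genes above 0 and 9.86% below. Between the untreated genotypes 0 genes of this list were called, against 2.16% higher and 2.62% lower of all genes.

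A further list held 12 genes that keep or remove methylation at imprinted regions. Of these, 11 were measured, and with doxorubicin 3 were called lower in WT MEFs and 0 in p53-/- MEFs, against 10.4% and 6.90% of all genes. The genes called lower were Uhrf1 (-4.42 and -0.37) and Dnmt1 (-1.96 and 0.44), which copy methylation after replication, and Dnmt3b (-1.12 and -0.60), a de novo methyltransferase. Uhrf1 had signals of 8176, 335, 17727 and 17654. Between untreated p53-/- and WT MEFs 3 were called higher, Dnmt1 (1.35), Uhrf1 (1.26) and Zfp57 (1.02), against 2.16% of all genes. Zfp57, which binds methylated imprinted regions, gave 0.78 and 0.02, Tet1, which oxidizes methylcytosine, 0.43 and -0.61, Dnmt3l -0.01 and 0.76, and Tet3 -0.16 and -0.44. Methylation itself was not measured, and a link between these values and those of the 10 members was not tested.

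Markers of other cell types moved with treatment on some arrays. The summed level of the 6 fat cell markers was 3.12, 2.52, 2.82 and 7.74 multiples of the 75th percentile, with Fabp4 at signals of 946, 848, 774 and 3929 and Plin1 above background on no array. The 8 epithelial markers summed to 5.85, 10.5, 5.41 and 18.0, mainly through Krt18, and the 6 neural markers to 9.57, 14.5, 13.3 and 24.4, mainly through Nes. Of the 10 fibroblast markers, 3 were called lower in WT and 2 in p53-/- MEFs, against 10.4% and 6.90% of all genes. None was called higher, against 11.0% and 9.23%. Lum gave -4.81 in WT and -2.34 in p53-/- MEFs, Pdgfrb -2.44 and -1.73, and Pdgfra -3.36 and -0.89. Vim gave 0.02 and -0.04, Thy1 0.25 and 0.80, and S100a4 -0.90 and 0.98. The part of these shifts in the values of the 10 members was not tested.

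The genes whose 4 levels, centred on their own mean, lay nearest to each member were not other members. Over 16562 genes and 4 arrays, the 3 nearest by Euclidean distance included Klhl7, Rab6b and Zscan18 for Mest, Pmvk, Bok and Smchd1 for Peg3, Srgap3, Tead1 and Tnc for Grb10, Spag9, Map3k2 and Gng12 for Igf2r, Hand2, Sertad4 and Gm5136 for Plagl1, and Rad51d, Ubtd1 and Inhba for Ndn. Those nearest to Dlk1 included Vhl and Ube2z, to Meg3 Dst and Zfp148, to Igf2 Prrc2a and Srm, and to H19 Neo1, beside probes named by an identifier only. Distances were between 0.03 and 0.14 log2 units. The nearest other member ranked between 82nd (H19 from Peg3) and 8717th (Ndn from Dlk1). Such a rank depends on how many genes lie close by, so it does not tell which members were closest in distance. With 4 arrays many genes have a similar course, and 22 to 327 genes lay within 0.25 log2 units of a member.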

How the data were processed

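RNA of WT and p53-/- MEFs, untreated or given doxorubicin, was hybridized by the authors to 4 one-colour Agilent mouse arrays, 1 per condition, after Cy3 labeling of 200 ng. Scans were read with Feature Extraction 10.7.3.1 of Agilent. This program had already subtracted background and spatial trends from the deposited spot intensities, which were not scaled between arrays. A deposited table of intensities held the same values (100% within a relative 0.0001). The deposited flags, coded 0 or 1 as other marks, tell which spots were well above background, saturated or outliers. Outlier spots were left out, 0 spots were saturated, repeat spots were averaged on the log2 scale, and each array's 75th percentile was then taken off. A gene was its brightest probe, and a ratio needed that probe well above background on the arrays compared. Precision is limited by the number of arrays, and there was no test.

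Names were those of the files, and 26055 probes were renamed by RefSeq accession (GRCm38.p6), which covered 18 of the 20 member probes; the H19 probes kept their file name. Probe positions are mm9 as deposited. Not all member probe sequences are reported here. The members, the lists and the rule for named genes were chosen with earlier results of these data known. That rule took all 10 members with every probe, genes of their clusters, for each list the 3 highest and 3 lowest differences, and for each member the 3 genes nearest in course. Alternatives were the array median, quantile normalization, no scaling, normexp (limma 3.58.1, offset 50, R 4.3.3), 2 filters, the mean of probes, the deposited table and 1.5-fold and 3-fold thresholds. The scaling used for the levels and the 2-fold calls were run on simulated data with known changes and spot noise only. All probes of a gene changed alike there, so the choice of the brightest probe was not tested. Far fewer genes were changed there than were called on these arrays, and variation between cultures was not simulated. The steps used Python 3.11.15, numpy 2.4.6 and pandas 2.3.3, and figures were drawn with matplotlib 3.10.9.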

Additional observations from a re-analysis of the deposited data

Results flagged for a closer look

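For each of these genes the log2 ratio of doxorubicin-treated over untreated MEFs had opposite signs in the 2 genotypes, with both ratios beyond the spot noise of 0.11. Each ratio rests on 1 pair of arrays, so the difference was not tested. Among the 10 imprinted growth genes this held for Ndn with its called difference (WT minus p53-/-) of 1.15 (0.62 in WT MEFs, -0.53 in p53-/- MEFs), while the ratio of Igf2 in WT MEFs, 0.02, was within that noise. Among other imprinted genes the differences were -1.77 for Cobl (-1.12 and 0.65), -1.60 for Dcn (-1.30 and 0.30), -0.71 for Nnat (-0.25 and 0.47), 1.21 for Slc22a18 (0.16 and -1.06), 1.06 for Nap1l5 (0.41 and -0.65), 0.87 for H13 (0.27 and -0.60) and 0.50 for Ins2 (0.28 and -0.22). Among genes that keep or remove methylation they were -2.40 for Dnmt1 (-1.96 and 0.44) and 1.04 for Tet1 (0.43 and -0.61). Before scaling, Slc22a18 was lower with doxorubicin in both genotypes, at signals of 1062.5, 1038, 169 and 105. Ins2 was then higher in both, at 311, 331, 323 and 356. The other genes with opposite signs kept them before scaling. The array median moved the median of all genes by -0.28 in WT and -0.30 in p53-/- MEFs. Such shifts are about as large as, or larger than, the WT ratios of Slc22a18, H13 and Ins2 and the p53-/- ratio of Dcn.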

How the results depend on the processing

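No paired analysis was possible because each condition had 1 array, and no array could be left out. The counts of members called at 2-fold were 5 lower in WT and 4 lower in p53-/- MEFs with doxorubicin, 1 lower in p53-/- than WT MEFs with doxorubicin, and 2 with a difference of at least 1 between genotypes. They kept these values with normexp, without a filter on dim probes, with all 4 arrays above background, and with the deposited table. The array median gave 6 lower in p53-/- MEFs. Quantile normalization gave 3 lower in p53-/- MEFs, 2 higher in doxorubicin-treated p53-/- than WT MEFs in place of 0, and 3 that differed between genotypes. The counts over all genes were 1403 lower of 17006, 2231 higher of 17947, and 1457 above and 1678 below 0 of 16562. Without scaling, 1 was lower in p53-/- MEFs with doxorubicin, 4 were higher and 0 lower in p53-/- than WT MEFs with doxorubicin, and 4 differed between genotypes, all with the lower ratio in WT MEFs and 0 of them shared with Igf2 and Ndn. Over all genes, 588 of 17006 were then lower in p53-/- MEFs. In p53-/- over WT MEFs with doxorubicin, 4076 were higher and 1088 lower of 17947. Differences were above 0 for 552 and below 0 for 4177 of 16562. The mean of all probes gave 3 lower in WT MEFs, where Plagl1 was at -0.87 and H19, at -1.85, was not counted because its dim probe was below background. It called 1613 of 16269 genes lower there. A 1.5-fold threshold gave 1 higher in WT and 7 lower in p53-/- MEFs with doxorubicin, 1 higher in untreated p53-/- than WT MEFs, 4 higher and 2 lower in p53-/- than WT MEFs with doxorubicin, and 6 that differed between genotypes. Among all genes it called 3623 of 17572 higher in WT and 2700 of 17006 lower in p53-/- MEFs. It called 1514 of 17344 higher in untreated p53-/- than WT MEFs, and 4090 higher and 3536 lower of 17947 with doxorubicin. Of 16562 genes, 3053 differed above 0 and 3287 below. A 3-fold threshold gave 2 lower in WT and 1 lower in p53-/- MEFs, 0 lower in p53-/- than WT MEFs with doxorubicin, and 0 that differed. The matching counts over all genes were 735 of 17572, 385 of 17006 and 867 of 17947, and 527 above and 727 below 0 of 16562. Fewer or more calls at another threshold follow from the threshold, and the cause of the other changes was not tested.

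Of the 50 ratios and differences of single members, 20 moved by more than the spot noise with the array median, 8 with quantile normalization, 17 with the mean of probes and 50 without scaling. Besides Igf2 and Dlk1 in WT MEFs, signs turned for Dlk1 in doxorubicin-treated p53-/- over WT MEFs (0.04 with quantile normalization, 0.24 without scaling), for the differences of Igf2r (-0.42) and Meg3 (-0.15) without scaling, and, between the untreated genotypes, for Mest (0.04 with the mean of probes), Meg3 (0.004 with quantile normalization) and Grb10 (-0.11 without scaling, -0.02 with the array median). Scaling to the array median moved the median of all genes by -0.28 in WT and -0.30 in p53-/- MEFs, and no scaling by -0.19 and 0.36. Of all called genes in WT MEFs, 51.4% were higher with the 75th percentile, 32.1% with the array median and 37.6% without scaling; in p53-/- MEFs these shares were 57.2%, 31.2% and 83.7%. Counts over all genes moved with them: with the array median 2802 genes were lower in WT MEFs in place of 1833, and in p53-/- MEFs 2107 were lower and 957 higher in place of 1173 and 1570, while without scaling 588 were lower and 3027 higher in p53-/- MEFs.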

Other observations

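A few other imprinted genes differed widely between these arrays. Nnat, which encodes the membrane proteolipid neuronatin, had signals of 983, 727, 5114 and 9096 in WT MEFs without and with doxorubicin and then in p53-/- MEFs without and with it. Its log2 ratio of p53-/- over WT was 2.52 without and 3.23 with doxorubicin. Tnfrsf23, a decoy receptor for TRAIL, had signals of 5156, 20187, 2626 and 6115, and its doxorubicin ratio was 2.16 in WT against 0.86 in p53-/- MEFs. Ascl2, a transcription factor of placental precursors, had signals of 77.2, 1758, 58.2 and 295 and was above background with doxorubicin only. These values come from 1 array each and were not tested.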
